A study of Mus musculus with 16 samples.

Results

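The data described here show how a diet containing CCH, coral calcium hydride, went with gene expression in the hippocampus of the SAM/P-8 mouse strain. They are 8 of the 16 arrays of the series, chosen by title: the 4 arrays of SAM/P-8 mice fed CCH and the 4 of SAM/P-8 mice on the control diet. Both groups were male SAM/P-8 mice, 8 weeks old at the start and fed for 8 weeks on CE-2, a rodent chow. In the CCH group the chow carried 0.1% CCH, and in the control group it carried none. SAM is the senescence-accelerated mouse, selected from AKR/J stock, so the control mice share the same inbred, senescence-prone background. The other 8 arrays hold the same 2 diets in SAM/R-1, the senescence-resistant line, and are used here to ask whether a diet difference was of another size in that strain. They also enter the estimate of the spread behind each SE, and with only the 8 SAM/P-8 arrays 32 probes passed in place of 253.

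Total RNA of each sample was hybridised to a one-colour Agilent whole mouse genome array. The labels number the arrays of a group without saying that each came from a different animal, so the p-values measure the spread between these samples, which may be technical. Each group lay on a slide of its own, so slide and diet cannot be told apart in anything that follows. Levels are log2 values of the processed signal minus the 75th percentile of their array, and a difference is CCH minus control on that scale with the SE of a limma fit over all 16 arrays. The shares of spots well above background were 71.1 ± 0.768% on the CCH arrays and 68.4 ± 1.83% on the control arrays (SD, n = 4 and 4; exact permutation test, two-sided, p = 0.0571, where 0.0286 is the smallest p this design allows). Arrays of one diet correlated at 0.988 to 0.996 and arrays of different diets at 0.987 to 0.995. Precision is limited by the 4 arrays of each group.

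The hippocampus encodes memories through its excitatory pyramidal and granule neurons, and activity in these neurons switches on immediate early genes such as Fos, Arc and the Egr family within minutes. Its cells also carry a circadian clock, in which CLOCK and BMAL1 drive the Per, Cry and Ciart genes from E-box sequences and the products of those genes repress their own drivers. SAM/P-8 is known as a strain in which learning and memory deficits appear early, and CCH is described as a calcium preparation loaded with hydride.

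CCH arrays CCH 3 and CCH 4 and control arrays 1, 2 and 4 stood apart from their groups in markers of neighbouring tissue or blood. Over 16 striatal genes, a list score (the mean level of the genes after each is centred on its mean over the 16 arrays) was 3.54 on CCH 4, against -0.31 to 0.04 on the other CCH arrays and -0.55 to -0.16 on the control arrays. The hypothalamic and pituitary score was 2.27 on the same array, against -0.31 to -0.08 in the rest of its group, and its oligodendrocyte score was 0.48, against -0.19 to -0.05. On CCH 3 the choroid plexus score was -2.28 where the other CCH arrays had 0.56 to 0.72, and on control 4 it was -1.37 where the other control arrays had 0.67 to 1.21. Red blood cell scores were 0.89 and 1.39 on control 1 and control 2, against -0.10 and -0.01 on the other control arrays. In whole tissue a smaller number of cells of a type and less RNA per cell cannot be told apart. None of the marker lists held a gene past the threshold, including those of CA1, of CA2 and CA3, and of the dentate gyrus, whose median differences were -0.12, -0.25 and -0.11 over 8, 8 and 11 genes. Without CCH 4 these medians were -0.03, -0.19 and 0.01. The part of these scores in the results below was not tested. Calls that did not pass without CCH 4 are named beside the genes.

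**Figure D1:**
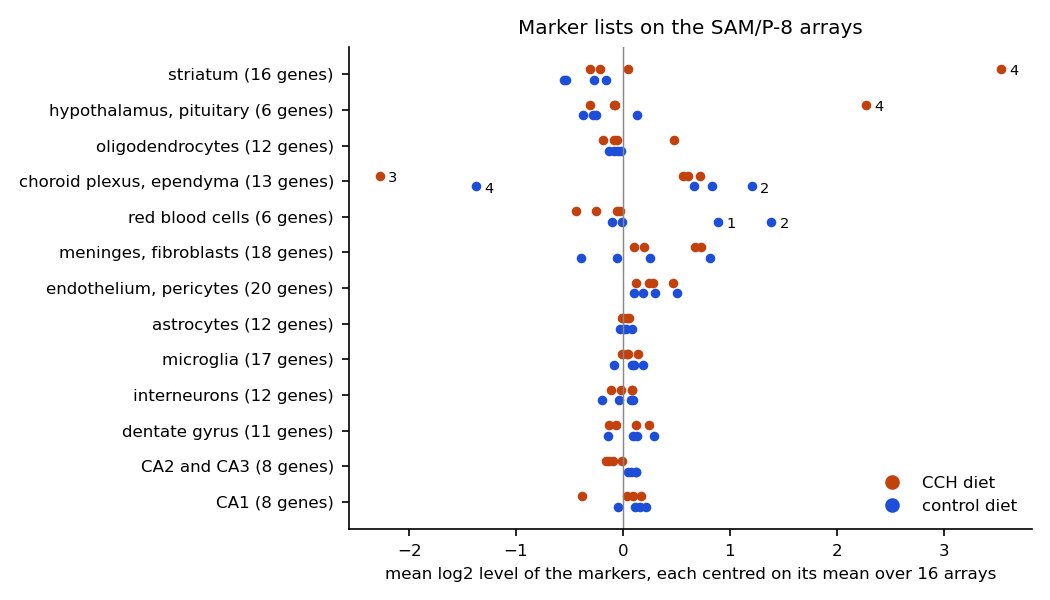
Marker lists on the 8 SAM/P-8 arrays, with the list score on the x axis (mean log2 level after each gene is centred on its mean over 16 arrays), 1 point per array, with the array number beside points that stand out. CCH 4 stands alone at 3.54 for striatum, CCH 3 and control 4 are low for choroid plexus, and control 1 and control 2 are high for red blood cells.

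On the CCH diet 109 of 13144 genes differed from the control diet in SAM/P-8 with a limma adjusted p under 0.05. These were 58 genes that rose, 0.441% of those measured, and 51 that fell, 0.388%. The differences were small: their median size was 0.35, 19 genes reached 1.5-fold and 9 reached 2-fold in the fit, 4 of them measured on all 8 arrays. In each of the 109 genes the CCH arrays lay on one side of the control arrays, 3 against 4 for Tfap2e, Vmn1r214 and Krt35 where a spot was dropped. Such separation held for 9.68% of all genes measured, 3.33% with CCH higher and 6.35% with CCH lower. By probes the count was 253 of 27854 (0.908%), of which 148 were higher, or 0.531%, and 105 lower, or 0.377%. The share of higher probes among the called was 58.5%, and 46.3% when each array was centred on its median instead. With only probes well above background on all 8 SAM/P-8 arrays kept, 216 of 26545 passed, 119 higher and 97 lower. With the background estimated by normexp instead of the scanner software, 0 probes passed in limma, while 2849 had an unadjusted p under 0.05, and each of the 47 called genes named below for its size kept its direction, though several shrank by more than 1.5-fold, as given beside them.

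Among the genes that rose, the voltage-gated potassium channel gene Kcnh5 rose most among those well above background on all 8 arrays. Its levels were -2.69, -2.81, -2.65 and -2.68 on CCH 1 to 4 and -3.70, -3.47, -3.45 and -3.08 on control 1 to 4. The CCH arrays lay close together, and the highest control array remained below the lowest of them. The difference was 0.72 ± 0.11, or 1.65-fold (adjusted p = 0.0118). Of 44 potassium channel genes measured Kcnh5 was the 1 that passed, and the median difference of the list was 0.06.

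Zwint, Cenph, Macroh2a2 and Rttn were among the genes that rose. Zwint, which encodes a kinetochore protein that links to the spindle checkpoint and is abundant in neurons, had levels of 3.48, 3.63, 3.56 and 3.56 on CCH 1 to 4 and 3.08, 3.11, 3.12 and 2.99 on control 1 to 4. The 4 CCH arrays exceeded each control array (0.49 ± 0.07, adjusted p = 0.00716), although a dimmer probe of Zwint gave 0.12 and did not pass. Cenph, an inner kinetochore gene, differed by 0.67 ± 0.13 (adjusted p = 0.0331), with control 4 at -4.29 close to CCH 1 at -4.26 and the other control arrays at -4.86 to -4.79. Macroh2a2, which encodes a histone H2A variant of silent chromatin, rose from a control range of -5.10 to -4.82 to a CCH range of -4.53 to -4.33 (0.51 ± 0.07, adjusted p = 0.00359). Rttn, a gene of centriole assembly, rose by 0.41 ± 0.08. Without CCH 4, Cenph and Rttn did not pass (adjusted p = 0.0831 and 0.0722), and with normexp the difference of Cenph was 0.43. A list of mitosis and kinetochore genes, which holds neither Zwint nor Rttn, had 25 measured members. Cenph was the 1 of them that passed in SAM/P-8, with 16 positive differences and a median of 0.05. Of 25 chromatin regulators on a list without Macroh2a2, 0 passed, with 16 negative and a median of -0.04.

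Erf, which encodes an ETS repressor controlled by ERK, had levels of 3.37, 3.26, 3.41 and 3.49 on CCH 1 to 4 and 2.90, 2.92, 3.06 and 2.96 on control 1 to 4. It had the smallest adjusted p of the genes that rose and were measured on all 8 arrays (0.42 ± 0.06, adjusted p = 0.00277), with a clear gap between the diets. The zinc finger genes Zfp516 and Zbtb21 rose by 0.64 ± 0.13 and 0.41 ± 0.08, the kinase gene Pim3 by 0.43 ± 0.07 and the phosphatase gene Ptpn12 by 0.40 ± 0.06. Ptpn12 was one of 4 genes with 2 called probes, the second at 0.43. Insig1, which holds the sterol sensor in the endoplasmic reticulum, rose by 0.43 ± 0.08 (adjusted p = 0.0261) with CCH arrays at -1.90 to -1.73 and control arrays at -2.29 to -2.12. It was the 1 of 25 cholesterol synthesis and uptake genes to pass. Without CCH 4, Zfp516 and Insig1 did not pass (adjusted p = 0.0831 and 0.0622). Lss stood at 0.31 and Cyp51 at 0.24 without passing, and the median of the list was 0.03, or -0.02 with each array centred on its median.

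The other large increases measured on all 8 arrays were Ciart, Lrrc8c, a volume-regulated anion channel subunit (0.56 ± 0.10), Arhgap27 and Arhgap32, which switch off small GTPases (0.56 ± 0.11 and 0.46 ± 0.10), and Papss2, which makes the sulfate donor PAPS (0.54 ± 0.11). Sntg2, a syntrophin gene, rose by 0.53 ± 0.11, Per1 by 0.48 ± 0.11, Ier5l by 0.45 ± 0.10 and Entpd7, a nucleotidase gene, by 0.39 ± 0.06. Without CCH 4, Arhgap27, Arhgap32, Papss2, Sntg2, Per1 and Ier5l did not pass, with adjusted p-values of 0.0627 to 0.0991. Without any 1 of the 8 SAM/P-8 arrays, in turn, Kcnh5, Macroh2a2, Zwint, Erf, Ptpn12 and Entpd7 passed in all 8 fits, and Ciart in 5 and Per1 in 2. With only the 8 SAM/P-8 arrays in the fit, Zwint alone of these genes passed.

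Some of the increases were in genes whose control signal was not well above background on most or all control arrays, so that only a lower bound of the fold is known. Bounds set the CCH mean against the mean of the control arrays, each taken at its own signal or at the weakest signal still well above background there, whichever was higher, and are given as at least. The bound was at least 5.60-fold higher for Vmn1r214, which belongs to the vomeronasal receptors, and at least 3.36-fold higher for Krt35, which encodes a keratin of hair. In both, CCH 4 was dropped as a non-uniform spot, leaving n = 3 and 4, and 1 of 4 control arrays, control 3, was well above background. Asb9, an ankyrin repeat gene, was at least 2.39-fold higher and Nat3, an acetyltransferase gene, at least 1.53-fold higher, with 0 of 4 control arrays well above background. Misp and Vipr1, which encodes a receptor of the neuropeptide VIP, were measured on 3 of 4 control arrays. The fitted difference of Misp was 2.00-fold, and the bound of Vipr1 was at least 1.46-fold higher. Without CCH 4, Asb9 and Misp did not pass (adjusted p = 0.0546 and 0.0926). With normexp the differences of these 6 genes were smaller, from 0.39 for Vipr1 to 1.62 for Vmn1r214. All 6 were kept through the CCH arrays alone, where they were higher. Of 16 measured genes on a peptide receptor list Vipr1 was the 1 that passed, and 8 more of the list were too dim to test. Under quantile normalization, described below, or with each array centred on its median, 0 of the list passed. The list does not hold Mc2r, a called gene given below.

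**Figure D2:**
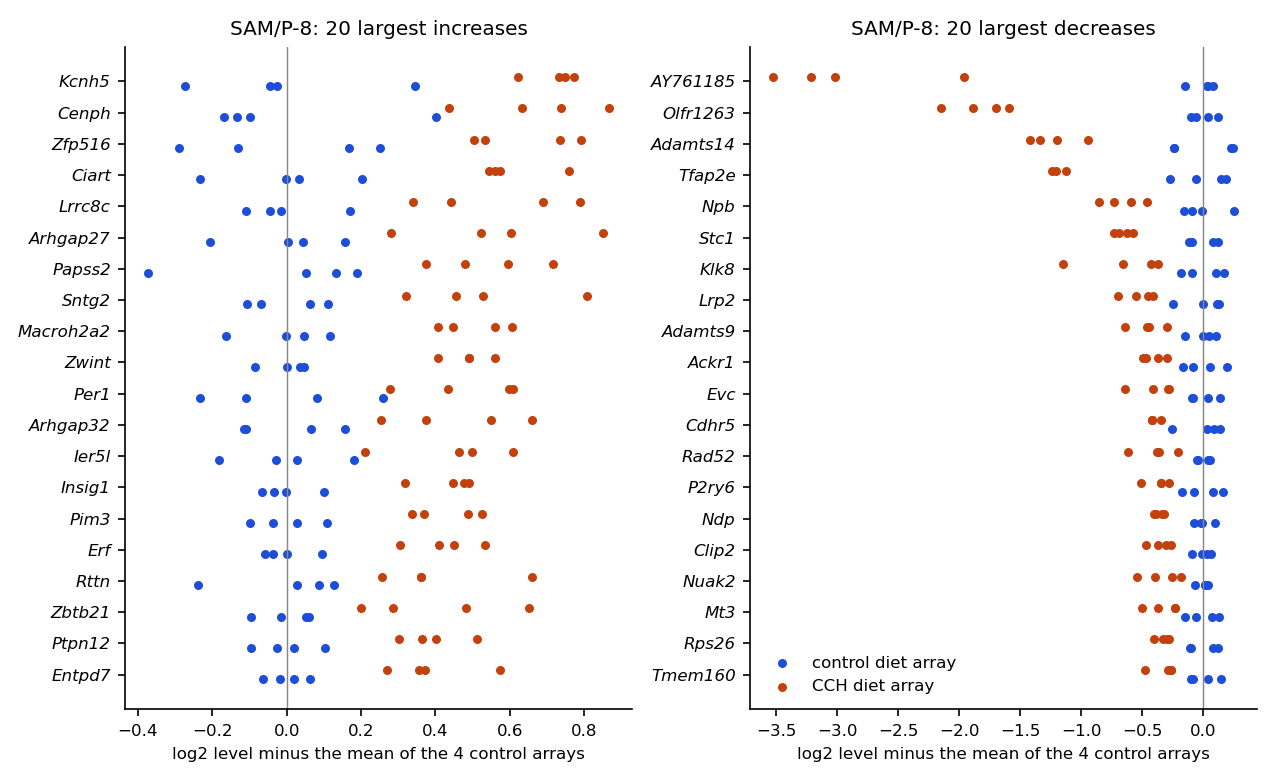
Levels of the 20 largest increases (left) and 20 largest decreases (right) among called genes measured on all 8 arrays, as log2 level minus the mean of the 4 control arrays, 1 point per array. The increases reach 0.72 for Kcnh5, while 4 decreases, AY761185, Olfr1263, Adamts14 and Tfap2e, exceed 1.

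Among genes measured on all 8 arrays, the largest decreases exceeded the increases in size. AY761185, a gene known by its sequence name, had levels of -5.25, -5.05, -4.00 and -5.56 on CCH 1 to 4 and -1.95, -2.19, -1.998 and -1.997 on control 1 to 4. The 4 control arrays agreed within 0.10 (SD) and lay far above all CCH arrays (-2.93 ± 0.24, 7.63-fold lower, adjusted p = 1.30e-05). In SAM/R-1 the same probe stood at -4.87 with CCH and -4.51 without, so the SAM/P-8 control group was the 1 of the 4 groups with a high level. Olfr1263, an olfactory receptor gene, was -4.86, -5.42, -4.96 and -5.15 on CCH 1 to 4 and -3.37, -3.22, -3.32 and -3.14 on control 1 to 4. It was 3.56-fold lower with CCH (-1.83 ± 0.25, adjusted p = 0.00277), and the SAM/R-1 means of -4.52 and -4.18 fell between those of the SAM/P-8 diets. Without CCH 4, AY761185 and Olfr1263 still passed. With normexp their differences were -1.46 and -0.65.

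The extracellular protease genes Adamts14 and Adamts9 both fell, out of 13 measured members of the ADAMTS family (4 more were too dim). Adamts14, whose product trims the ends of procollagen, had levels of -4.45, -4.85, -4.71 and -4.93 on CCH 1 to 4 and -3.75, -3.75, -3.26 and -3.28 on control 1 to 4. The groups were apart (-1.23 ± 0.15, adjusted p = 0.00129), and the SAM/R-1 means were -4.61 and -4.52. Adamts9, which cleaves the proteoglycans aggrecan and versican, stood at -1.50 to -1.16 with CCH and at -1.01 to -0.76 without (-0.46 ± 0.08, adjusted p = 0.0230). Without CCH 4, Adamts9 did not pass (adjusted p = 0.0546), and with normexp the difference of Adamts14 was -0.40. The median of the family was -0.05, with 8 negative differences. With normexp that median was 0.03, and over the fits that left out 1 array it ran from -0.17 to 0.07.

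Stc1, Klk8, Npb, Lrp2 and Ndp also fell. Stc1 encodes stanniocalcin, a hormone of calcium and phosphate balance. Its levels were -3.74, -3.86, -3.90 and -3.79 on CCH 1 to 4 and -3.26, -3.09, -3.04 and -3.28 on control 1 to 4. The groups did not overlap (-0.66 ± 0.08, 1.58-fold lower, adjusted p = 0.00129). A second, dimmer probe of Stc1 gave 0.22 ± 0.12 and did not pass, with 2 of 4 control arrays well above background. Klk8, the hippocampal serine protease neuropsin, fell by 0.65 ± 0.14 (adjusted p = 0.0482), with CCH 4 at 0.18 and the other CCH arrays at 0.67 to 0.96, against 1.14 on the lowest control array. Npb, a neuropeptide precursor, fell by 0.66 ± 0.12, Lrp2, the endocytic receptor megalin, by 0.53 ± 0.10 and Ndp, a secreted ligand of Frizzled receptors, by 0.36 ± 0.07. Without CCH 4, Klk8, Npb, Lrp2 and Ndp did not pass, with adjusted p-values of 0.0622 to 0.0719. With normexp the differences of Stc1, Npb and Lrp2 were -0.23, -0.30 and -0.11.

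Ackr1, an atypical chemokine receptor of vessels and red cells, fell on both of its probes, by 0.41 ± 0.08 and 0.46 ± 0.09. Its levels were 0.41, 0.58, 0.51 and 0.39 on CCH 1 to 4 and 1.08, 0.80, 0.94 and 0.72 on control 1 to 4. Control 1, with a red blood cell score of 0.89, was the highest. Control 2, with the highest score of 1.39, was below control 3, whose score was -0.10. P2ry6, a nucleotide receptor gene, fell by 0.37 ± 0.08 and Mt3, the brain metallothionein that binds zinc and copper, by 0.33 ± 0.07, with CCH arrays at 1.95 to 2.23 and control arrays at 2.31 to 2.59. Without CCH 4, Ackr1, P2ry6 and Mt3 did not pass, with adjusted p-values of 0.0826 to 0.0926.

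Tfap2e, a transcription factor gene, had levels of 2.50, 2.46 and 2.58 on CCH 2 to 4, CCH 1 being dropped as a non-uniform spot, and 3.89, 3.85, 3.64 and 3.43 on control 1 to 4. It was lower by 1.19 ± 0.25 (adjusted p = 0.0428), and the SAM/R-1 means, 3.85 and 3.79, were near the SAM/P-8 control mean of 3.70. The remaining decreases were smaller: Evc, a gene of primary cilia, Cdhr5, a protocadherin-like gene, Rad52, a DNA repair gene, Clip2, a microtubule linker gene, Nuak2, an AMPK-related kinase gene, Tmem160 and Rps26 fell by 0.32 to 0.41. Without CCH 4, Tfap2e and these genes other than Clip2 did not pass, with adjusted p-values of 0.0524 to 0.102. A dimmer probe of Clip2 gave -0.11 ± 0.08 and did not pass in the main fit. With normexp the differences of Cdhr5 and Nuak2 were -0.04 and -0.17. Mc2r, the receptor for corticotropin, was measured on 3 of 4 CCH arrays and was at least 1.67-fold lower, though its difference with normexp was -0.03. AY761185, Olfr1263, Adamts14 and Stc1 passed in all 8 fits that left out 1 SAM/P-8 array, and Tfap2e and Klk8 in 1 and 3.

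Among the repressors of the circadian clock, Ciart and Per1 rose, and the E-box, to which CLOCK and BMAL1 bind, can be read in the promoters of the 4 with the smallest p-values. Of 10 repressors measured, 10 had positive differences with a median of 0.33, against a median of -0.02 and 42.8% positive over all genes, and 2 passed the threshold. With the probes of each gene averaged the median was 0.23. Over the fits without 1 SAM/P-8 array 0 to 3 repressors passed. The promoters of the 4 repressors that hold an E-box are shown for that reason, as the 250 bases before the start in RefSeq's GRCm38.p6 annotation, 5′ to 3′ on the strand of the gene, with CACGTG in capitals. They are Ciart at chr3:95882229-95882478 (minus strand), Per1 at chr11:69098699-69098948 (plus strand), Cry1 at chr10:85185055-85185304 (minus strand) and Bhlhe41 at chr6:145865421-145865670 (minus strand).
Ciart: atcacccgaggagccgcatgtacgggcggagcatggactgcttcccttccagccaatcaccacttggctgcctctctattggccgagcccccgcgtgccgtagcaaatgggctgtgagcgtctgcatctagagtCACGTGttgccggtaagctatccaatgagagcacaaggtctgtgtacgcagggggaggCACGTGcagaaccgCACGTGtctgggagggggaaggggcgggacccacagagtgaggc
Per1: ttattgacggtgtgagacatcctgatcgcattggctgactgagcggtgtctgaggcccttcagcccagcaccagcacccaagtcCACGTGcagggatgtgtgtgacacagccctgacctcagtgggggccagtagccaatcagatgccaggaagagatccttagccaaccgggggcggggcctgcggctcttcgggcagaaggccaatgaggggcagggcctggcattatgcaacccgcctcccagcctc
Cry1: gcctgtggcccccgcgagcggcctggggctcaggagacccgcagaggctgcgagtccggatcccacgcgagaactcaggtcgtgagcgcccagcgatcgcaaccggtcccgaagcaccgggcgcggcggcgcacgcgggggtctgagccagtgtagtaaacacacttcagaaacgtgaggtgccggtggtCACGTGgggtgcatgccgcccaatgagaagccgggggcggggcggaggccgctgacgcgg
Bhlhe41: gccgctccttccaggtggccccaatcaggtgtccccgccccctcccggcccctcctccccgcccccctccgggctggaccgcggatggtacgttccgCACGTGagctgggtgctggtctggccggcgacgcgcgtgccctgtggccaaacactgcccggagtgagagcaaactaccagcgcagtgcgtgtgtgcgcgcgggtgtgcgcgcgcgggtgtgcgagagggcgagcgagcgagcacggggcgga
The motif reads the same on both strands. Ciart carries 3 copies, 116, 58 and 44 bases before its start, and Per1, Cry1 and Bhlhe41 carry 1 each, 166, 60 and 153 bases before theirs. Per1 has 2 windows in the table, of which the one with the motif is shown, and the other lacks it. It was found in 4 of the 8 repressors with a promoter in the table and in 9.75% of the 10494 genes measured that have one, or 6.02% of 32851 windows of 250 bases. Among genes past the threshold it was found in 7 of the 48 that rose and in 2 of the 41 that fell. A match is a description of the letters and no sign of binding in these samples.

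Ciart, which encodes a repressor of CLOCK and BMAL1, had levels of -1.36, -1.37, -1.17 and -1.39 on CCH 1 to 4 and -1.73, -1.90, -2.16 and -1.93 on control 1 to 4. The lowest CCH array was above the highest control array, and the difference was 0.61 ± 0.11, or 1.53-fold (adjusted p = 0.0189). Per1, the period gene that also answers to glucocorticoids and to neuronal activity, had levels of 2.99, 2.66, 2.99 and 2.82 on CCH 1 to 4 and 2.65, 2.16, 2.28 and 2.47 on control 1 to 4. Its groups nearly met, at CCH 2 and control 1 (0.48 ± 0.11, adjusted p = 0.0489, and 0.0905 without CCH 4). Cry1, the cryptochrome gene with 1 E-box above, had the largest difference of the list without passing (0.70 ± 0.16, adjusted p = 0.0562), from -4.64, -4.41, -5.12 and -4.71 on the control arrays to -4.26, -4.19, -3.90 and -3.73 on the CCH arrays. Bhlhe41 stood at 0.31 ± 0.08 (adjusted p = 0.0762), Per3 at 0.41 ± 0.13 (adjusted p = 0.121), Per2 at 0.36 ± 0.12 (adjusted p = 0.127) and Cry2 at 0.13 ± 0.05.

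The clock list was not uniform. Nr1d1 and Nr1d2, which encode the REV-ERB receptors that repress Bmal1, stood at 0.03 ± 0.08 and 0.05 ± 0.07, and their signs turned under other settings. Bhlhe40 stood at 0.10 ± 0.11. The diets did not overlap for 5 of the 10 repressors, all higher, where 3.33% of all genes did so. Of 13 clock activators and output genes 0 passed, 8 were positive and the median was 0.08. Arntl, which encodes BMAL1, stood at 0.00 ± 0.08, Clock at -0.07 ± 0.07, Dbp at 0.27 ± 0.11 and Rorb at 0.45 ± 0.14. The labels give no hour of sampling for the groups, and the part of sampling time in these values was not tested. In SAM/R-1, on other arrays, the median of the repressors was 0.30, with Per2 at 0.60 ± 0.12, Cry1 at 0.59 ± 0.16, Ciart at 0.51 ± 0.11 and Per1 at 0.43 ± 0.11, and 0 past the threshold. No clock gene passed the test of a difference between the strains.

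**Figure D3:**
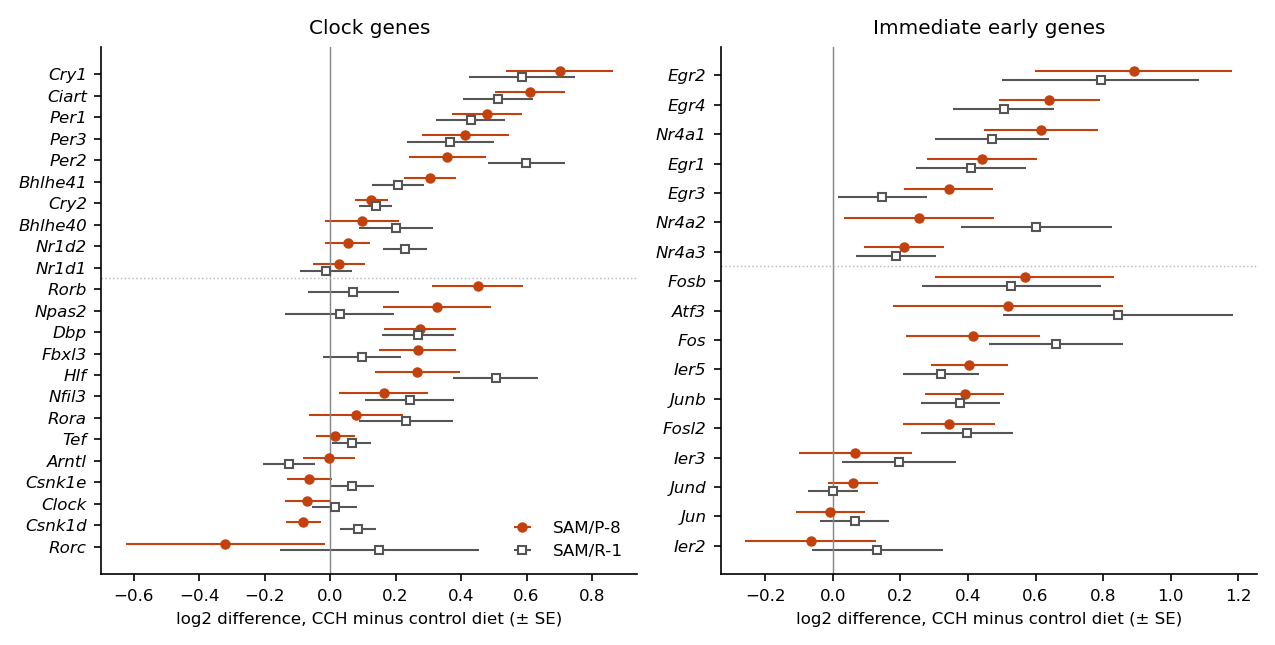
Differences between the CCH and control diet, log2 ± SE with 4 and 4 arrays per strain, for clock genes (left, repressors above the dotted line) and immediate early genes (right, Egr and Nr4a genes above the line). In both strains Cry1, Ciart and Per1 lie to the right of 0, while Nr1d1, Arntl, Clock, Jun and Jund lie near it.

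Immediate early genes had positive differences without a gene past the threshold. Of 7 Egr and Nr4a genes, transcription factors induced by synaptic activity, 7 were positive with a median of 0.44. Egr4 had levels of 4.65, 4.49, 4.85 and 4.99 on CCH 1 to 4 and 4.27, 3.89, 4.07 and 4.18 on control 1 to 4, and the diets did not overlap (0.64 ± 0.15, adjusted p = 0.0576). Nr4a1 stood at 0.62 ± 0.17 (adjusted p = 0.0832), with CCH 2 at 5.28 just below control 1 at 5.30, and Egr2 had the largest value, 0.89 ± 0.29 (adjusted p = 0.128). Control 2 was the lowest of the 8 arrays for Egr1, Egr2, Egr4 and Nr4a1. Of 10 Fos and Jun family genes 8 were positive with a median of 0.37, among them Fosb at 0.57 ± 0.27, Fos at 0.42 ± 0.20, Ier5 at 0.40 ± 0.11 and Junb at 0.39 ± 0.12, while Jun stood at -0.01 ± 0.10. Of 25 downstream genes, 20 were positive with a median of 0.20 and 0 passed, with Arc at 0.56 ± 0.18, Npas4 at 0.53 ± 0.24 and Klf10 at 0.44 ± 0.13. In SAM/R-1 the medians of the 3 lists were 0.47, 0.35 and 0.24. The heat shock genes Hspa1b and Hspa1a stood at 0.86 ± 0.32 and 0.67 ± 0.31 without passing, among 20 chaperone genes with a median of 0.12.

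Genes of mitochondrial respiration and of ribosomes mostly had small negative differences, few of which passed. Of 36 measured subunit and assembly genes of complex I, which takes electrons from NADH, 36 had negative differences with a median of -0.14, 17 had diets that did not overlap, all lower, where 6.35% of all genes did so, and 4 passed. Ndufa2 had levels of 4.25, 4.27, 4.22 and 4.29 on CCH 1 to 4 and 4.50, 4.63, 4.57 and 4.47 on control 1 to 4 (-0.28 ± 0.04, adjusted p = 0.00978). Ndufa5 went from 6.27, 6.35, 6.31 and 6.27 on the control arrays to 6.05, 6.08, 6.06 and 6.02 on the CCH arrays (-0.25 ± 0.04, adjusted p = 0.0135). In both genes the 4 CCH values lay close together and below each control value. Ndufa3 and Ndufa4 fell by 0.22 ± 0.05 and 0.21 ± 0.04, and without CCH 4 neither passed, nor did Uqcr11 (adjusted p = 0.0954, 0.0831 and 0.0721). In complexes II and III, Uqcr11 was the 1 of 14 to pass (-0.19 ± 0.04), in complex IV, cytochrome c oxidase, Cox4i1 was the 1 of 11 (-0.21 ± 0.04), and in ATP synthase 0 of 16 passed, though 16 were negative with a median of -0.13 and 11 had diets apart.

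Ribosomal protein genes had medians of -0.15 over 46 genes of the large and -0.14 over 34 of the small subunit, with Rps26 among those past the threshold, at -0.33 ± 0.06. Of 70 mitochondrial ribosomal genes, 2 passed, Mrpl45 (-0.30 ± 0.06) and Mrpl51 (-0.28 ± 0.05), with a median of -0.10. Without CCH 4, Rps26 and Mrpl45 did not pass (adjusted p = 0.0591 and 0.0763). Of 31 proteasome genes 0 passed, with a median of -0.08. In SAM/R-1 the medians were -0.08 for complex I, -0.06 for ATP synthase and -0.05 and -0.06 for the large and small ribosomal subunits.

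Over all genes the median difference also fell with signal strength, and the part of signal strength in these negative medians was not tested. With genes ordered by mean level into 10 classes of equal size, the median difference went from 0.05 in the dimmest class, where 57.2% of genes were positive, to -0.08 in the brightest, where 18.8% were. The respiratory and ribosomal lists lie mostly in the bright range, with median levels of 4.53 for complex I, 5.63 for ATP synthase and 6.16 for the small ribosomal subunit. Under quantile normalization, which gives each array the same distribution, the medians of the dimmest and brightest classes were -0.0041 and -0.0029. The list medians then were -0.05 for complex I, -0.05 for ATP synthase, -0.07 and -0.04 for the ribosomal subunits, with 0 genes of these lists past the threshold. The mitochondrial ribosomal list had a median of -0.06 and kept Mrpl45 and Mrpl51 (adjusted p = 0.0475 and 0.0496). Those of the clock repressors and of the Egr and Nr4a genes were 0.31 and 0.50 under quantile normalization, with 2 and 1 genes past it. With normexp the trend over brightness was steeper, from 0.19 to -0.11.

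**Figure D4:**
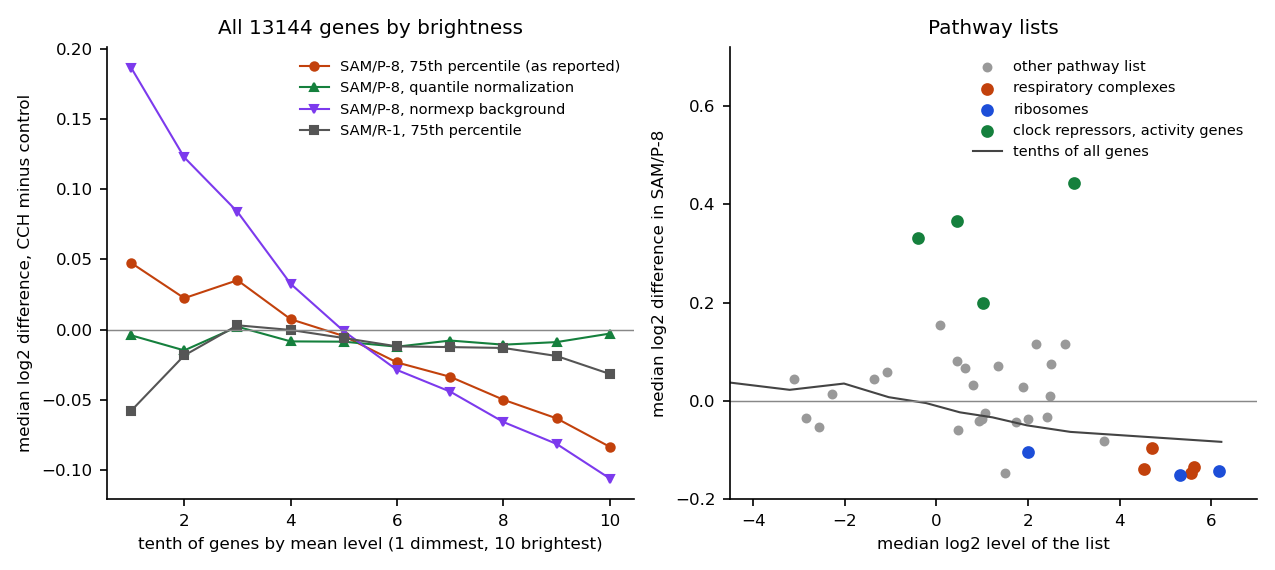
Left, median log2 difference between the CCH and control diet in 10 classes of genes ordered by mean level, in SAM/P-8 under 3 settings and in SAM/R-1. Right, each pathway list by its median level and median difference in SAM/P-8, with the 10 classes of all genes as a line from 0.05 at the dimmest to -0.08 at the brightest. Respiratory and ribosomal lists lie at -0.10 to -0.15 on the bright side, and clock repressors and activity genes lie above 0.

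Which probe stands for a gene also mattered. In the 4789 genes with more than 1 probe, the brightest probe passed in 26, 12 higher and 14 lower. The 6148 dimmer probes passed in 68 cases, 59 higher and 9 lower, and 2 of the 59 belonged to a gene whose brightest probe passed too. The medians were 0.04 for the dimmer and -0.03 for the brightest probes. Most of the calls on a dimmer probe are therefore left out of the gene counts above, and 4 genes, Ackr1, Ncam1, Ptpn12 and Xrn1, had 2 called probes.

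Genes tied to calcium, to telomeres and to oxidative stress were looked at because the diet carries calcium and hydride and the strain ages early. Of 11 measured genes of calcium and phosphate hormones and transport, Stc1 passed, and 10 others, the calcium-sensing receptor gene Casr among them, were too dim to test. Of 21 pumps, exchangers and release channels, Atp2a1, a calcium pump of the endoplasmic reticulum best known from muscle, passed (0.26 ± 0.06, adjusted p = 0.0440), with CCH arrays at -2.15 to -1.97 and control arrays at -2.44 to -2.23, while the list's median was -0.15. Without CCH 4, Atp2a1 did not pass (adjusted p = 0.101). Of 23 calcium and sodium channel genes 0 passed. Of 22 antioxidant enzyme genes and 20 targets of the stress factor NRF2, 0 passed, with medians of -0.03 and -0.02, which were both 0.02 under quantile normalization.

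Among 11 telomere genes, 2 rose. Tert, the catalytic subunit of telomerase, had levels of -4.72, -4.58, -4.55 and -4.58 on CCH 1 to 4 and -5.03, -4.91, -5.00 and -5.44 on control 1 to 4, with 3 of 4 control arrays well above background. Its probe was thus kept through the CCH arrays alone, where Tert was higher, and would be left out by a filter on all 8 arrays. The fitted difference of Tert was 0.48 ± 0.09 (adjusted p = 0.0270, and 0.0627 without CCH 4), with no overlap. Terf1, a protein that binds telomeric repeats, was -0.12, -0.22, -0.28 and -0.45 on CCH 1 to 4 and -0.56, -0.71, -0.67 and -0.54 on control 1 to 4 (0.35 ± 0.07, adjusted p = 0.0341). Terf2 stood at 0.19 ± 0.07 on its brightest probe without passing, while a dimmer probe of it passed at 0.36 ± 0.06. The median of the list was 0.15. With each array centred on its median 0 of the 11 passed.

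Whether the diet difference depended on the strain was tested directly, as an interaction, and 12 of 13144 genes passed (0.0913%; by probes 38, or 0.136%). In 10 genes (0.0761%) the SAM/P-8 difference was the more positive, and in 2 (0.0152%), AY761185 and Stc1, the more negative. Of the former, Foxe3, Nat3, Hspa1l, Krt35, Tert and F9 were kept through the SAM/P-8 CCH arrays alone, where they were higher. The split between the signs is therefore not a result. With only probes well above background on all 8 SAM/P-8 arrays, 17 probes passed, 10 higher and 7 lower, against 27 and 11 of the 38. By genes 5 then passed. Foxe3, a forkhead transcription factor of the lens, had SAM/P-8 levels of -5.49, -5.18, -5.20 and -5.27 on CCH 1 to 4 and -5.89, -5.67, -5.75 and -5.93 on control 1 to 4. Since 1 of 4 SAM/P-8 control arrays was well above background, its rise there is known as a bound, at least 1.29-fold, while it fell in SAM/R-1 by 0.89 ± 0.09. The fitted difference between the strains had an adjusted p of 7.34e-05, and its size rests on those dim signals. Tert rose in SAM/P-8 and stood at -0.50 ± 0.09 in SAM/R-1 (difference 0.98 ± 0.13, adjusted p = 0.00335). Its mean was -5.09 in SAM/P-8 and -4.15 in SAM/R-1 on the control diet, and -4.61 and -4.65 on the CCH diet. These 4 means use the same arrays as the differences and add no evidence of their own.

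Stc1 fell in SAM/P-8 and stood at 0.07 ± 0.08 in SAM/R-1 (difference -0.73 ± 0.11, adjusted p = 0.0147). AY761185 stood at -0.36 ± 0.24 in SAM/R-1 (difference -2.58 ± 0.33, adjusted p = 0.00335). For Nat3, Hspa1l and Krt35, 0, 0 and 1 of the 4 SAM/P-8 control arrays were well above background, and for F9 and Tert 3 of 4, so that the size of the first 3 interactions is not measured. The other 6 were Spem2, F9, a coagulation factor gene, Mob3a, Hspa1l, Bub1, a kinase of the spindle checkpoint, and Kcp, which did not pass in SAM/P-8 alone, with fitted SAM/P-8 differences of 0.13 to 0.64 and SAM/R-1 differences of -0.93 to -0.23. In SAM/R-1 the diet comparison called 9 of 13144 genes (0.0685%), 9 lower and 0 higher, and 18 probes (0.0646%), and Foxe3 was the 1 of them also called in SAM/P-8, in the opposite direction. Across the 109 genes called in SAM/P-8, 97 had the same sign in SAM/R-1, 89.0% against 68.5% over all genes. Their median difference was 0.40 in SAM/P-8 and 0.12 in SAM/R-1 for the genes that rose, and -0.29 and -0.12 for those that fell. The SAM/P-8 medians are of genes chosen for their size there. A difference between the strains was called for the 12 genes above and was not shown for the rest.

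**Figure D5:**
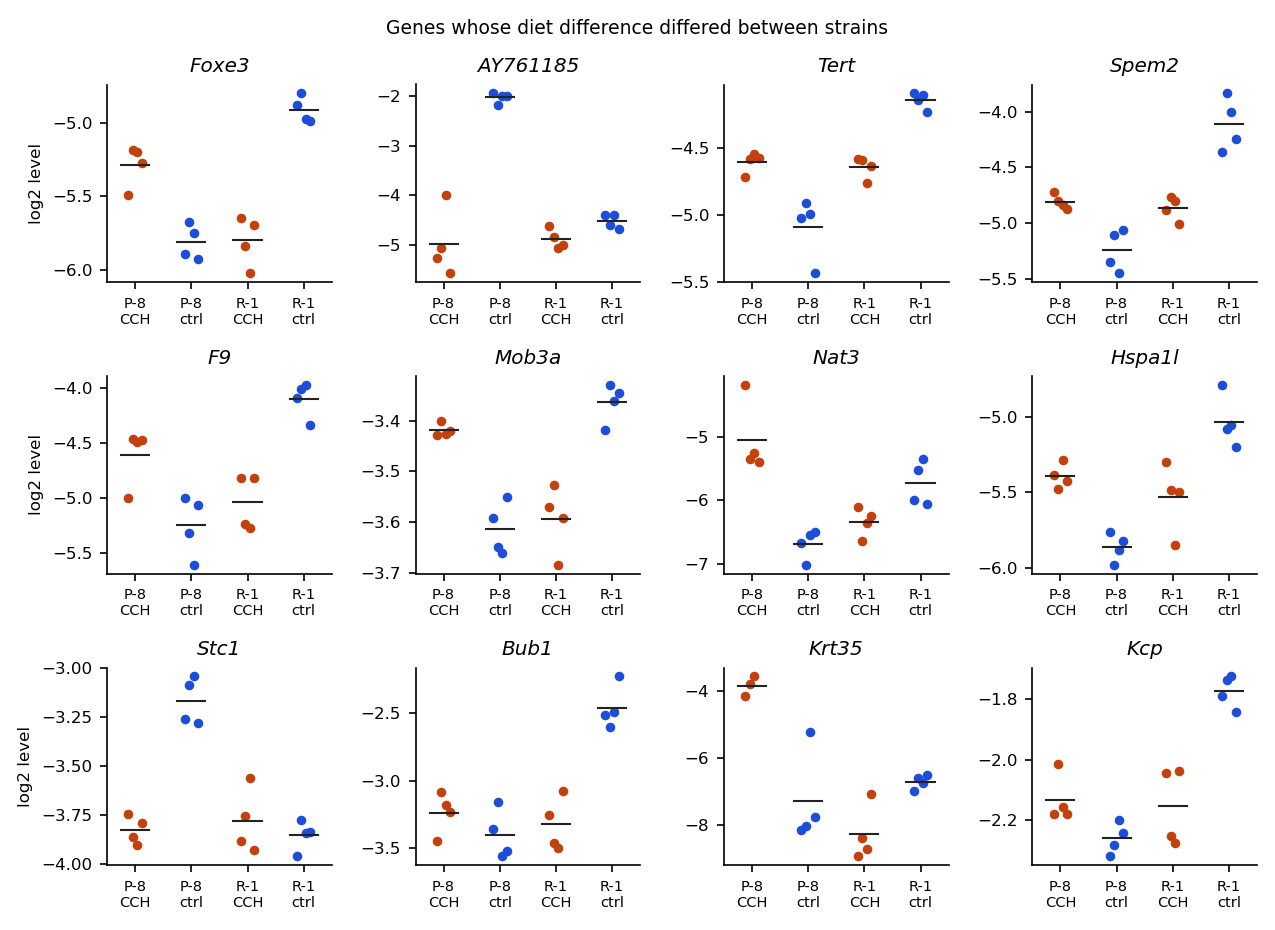
Log2 levels on all 16 arrays of the 12 genes whose diet difference differed between strains, with 1 point per array and a bar at the group mean, each panel on its own scale. AY761185 and Stc1 are high only in the SAM/P-8 control group of the 4. In Foxe3, Tert, Spem2, F9, Mob3a, Hspa1l, Bub1 and Kcp the SAM/R-1 control group, which lies on a slide of its own, has the highest mean.

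The number of calls depended on single arrays. Leaving out control 2, which had a high red blood cell score, left 70 called probes, and leaving out control 3 left 75. Leaving out CCH 1, CCH 3 or CCH 4 left 117, 108 or 127, while leaving out control 1 gave 495, of which 217 were higher. Without CCH 4, the array with striatal signal, 41 genes passed in place of 109, and the striatal median fell from 1.08 to 0.05. Of the 47 named genes 20 still passed without it, among them Kcnh5, Zwint, Erf, Adamts14 and Stc1. The 20 include Vmn1r214 and Krt35, from which CCH 4 had been dropped already, so their differences could not change.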

How the data were processed

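Per the file headers, each array was scanned and its spots were read with Agilent Feature Extraction 9.5.3.1, and the deposited processed signal is a background-subtracted intensity on a linear scale. The deposited table of the authors holds log2 values that are centred per probe, and it served as an alternative. Control spots and spots marked as non-uniform were left out, and the log2 of the intensity minus the 75th percentile of its array was the level. Of 41174 probes, 27854 were kept, those well above background on all 4 arrays of either SAM/P-8 group. A gene was represented by its kept probe with the highest mean, which gave 13144 genes, and 8562 kept probes had no gene name. Differences were fitted with limma 3.58.1 in R 4.3.3 over all 16 arrays with 4 group means and adjusted over all kept probes by Benjamini-Hochberg, with a threshold of 0.05. The procedure was tested on simulated data.

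Members and lists were chosen with earlier results of these data known. Named for size were, among called genes whose diets did not overlap, the 20 largest increases and 20 largest decreases measured on all 8 SAM/P-8 arrays, and up to 6 of each among the rest. Each list described adds its members past the threshold or those with the smallest p, each interaction result the 10 smallest p, and other genes are named as members of their list, some chosen after their values were seen. Same-numbered arrays of the diets deviated with correlations of 0.13, 0.25, -0.09 and -0.18, so the numbers were not taken as pairs. Promoters are RefSeq's, of GRCm38.p6, and the motif searched, CACGTG, is its own reverse complement. Some list members are not reported here.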

Additional observations from a re-analysis of the deposited data

Results flagged for a closer look

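Some arrays stood apart from the other 3 of their group by Dixon's test, which by chance marks about 1 in 20 groups. Both diet groups of each of the 47 named genes with complete values were tested, as were scores of the lists described. Several marks are therefore expected by chance, and those on single genes are not findings about the genes. The choroid plexus score was -2.28 on CCH 3, against 0.56 to 0.72. On CCH 4 the striatal score was 3.54, against -0.31 to 0.04, and the hypothalamic and pituitary score 2.27, against -0.31 to -0.08. Among the genes, Cenph was -4.29 on control 4, against -4.86 to -4.79, and Ciart was -1.17 on CCH 3, against -1.39 to -1.36. Cdhr5 was -4.23 on CCH 3 and Tmem160 was 2.91 on CCH 4. Krt35 was -5.20 on control 3, against -8.14 to -7.75, and Nat3 was -4.19 on CCH 1, against -5.40 to -5.26.

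The diet difference in SAM/P-8 minus that in SAM/R-1 passed the interaction test, in limma, for 12 genes. It was 1.41 for Foxe3, 0.98 for Tert, 1.18 for Spem2, 1.57 for F9, 0.42 for Mob3a and 2.24 for Nat3. It was 0.97 for Hspa1l, 1.03 for Bub1, 5.03 for Krt35 and 0.50 for Kcp. It was negative for AY761185, at -2.58, and for Stc1, at -0.73. In Foxe3, Nat3, Hspa1l and Krt35, 1, 0, 0 and 1 of 4 SAM/P-8 control arrays were well above background, so these values are fitted and their size is not measured. In Krt35, CCH 4 was dropped.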

How the results depend on the processing

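All 47 genes named for their size kept their direction under every alternative run. Of them 33 passed with quantile normalization, 30 with the replicate number as a block, 6 with only the 8 SAM/P-8 arrays and 0 with normexp. The 6 were Zwint, AY761185, Olfr1263, Adamts14, Tfap2e and Stc1. The 253 called probes of SAM/P-8 became 0 with normexp, 134 with median centring, 152 without the filter, 163 with the replicate block and 32 with only the 8 SAM/P-8 arrays, and ran from 70 to 495 without 1 SAM/P-8 array. For SAM/R-1, the 18 became 0 with normexp, 46 without the filter and 4 with the replicate block, and ran from 1, without its control 3, to 23. The 38 of the interaction became 0 with normexp and 17 with the stricter filter, and ran from 31 to 47 without 1 SAM/P-8 array, no SAM/R-1 array being left out. With normexp, limma had 2849, 2521 and 235 probes at an unadjusted p under 0.05 in the 3 comparisons. Nr1d1 turned to -0.0147 with median centring and ran from -0.00565 to 0.0562 without 1 array, and Nr1d2 from -0.00124 to 0.0937. The causes were not tested, except that some alternatives use fewer arrays or probes. Signal near background limits the dim genes.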

Other observations

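Synaptic, glial and stress lists gave few calls. Of 25 glutamate receptor genes and 21 GABA genes 0 passed, with medians of -0.06 and 0.07 (for the GABA genes -0.03 without CCH 4), and the kainate receptor gene Grik4, also a marker of CA3, stood at -0.46. Of 28 splicing factor genes Son passed, at -0.21, though not without CCH 4 (limma, adjusted p = 0.0799). Of 24 interferon response genes, 25 chromatin regulators, 18 genes of the endoplasmic reticulum stress response, 17 of amyloid and tau, 18 neurotrophin and growth factor genes and 26 of MAP kinase signalling, 0 passed, with medians between -0.04 and 0.07. Macroh2a2, which passed, is not on the list of chromatin regulators. Among 19 glucocorticoid-responsive genes Per1 passed and the median was 0.12. Of 16 genes on a neuropeptide list, which does not hold the called gene Npb, 0 passed.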
